A study of Mus musculus with 4 samples.

Results

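Alternative macrophage activation is the state that interleukin-4 and interleukin-13 induce in macrophages. Both cytokines bind receptors that share the Il4ra chain, Janus kinases phosphorylate the transcription factor STAT6, and STAT6 enters the nucleus and switches on a group of genes that serve in mouse as the markers of this state. In tumours, macrophages of this kind are commonly linked with tissue repair, angiogenesis and dampened immunity. The 10 genes described here belong to that group, out of 22180 genes that the arrays name: the enzyme Arg1, the secreted proteins Retnla and Chil3, the lectin receptors Mrc1, Mgl2, Clec10a and Cd209a, the chemokines Ccl17 and Ccl24, and the nuclear receptor Pparg. They were taken by name, each through the probe sets that the platform annotation assigns to that gene and no other. All 10 were measured, by 11 probe sets, 1 per gene except for Cd209a, which had 2.

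RNA came from 4 primary mouse tumours, 1 array each, which form 1 group. All 4 carried mutant Alk, the TH-MYCN transgene and Stat6-/-, on a background of C57BL\6 x 129Sv/J. The tyrosine hydroxylase promoter of the transgene directs MYCN to the sympathetic lineage, where neuroblastoma arises. The label gives Stat6-/- with no driver that would limit the deletion to 1 cell type. Tumours that keep Stat6 were not analysed here. The values therefore show where these genes lay without STAT6, and no comparison with a STAT6-competent tumour was made. The sources used here do not give age, sex, the Alk substitution or whether each tumour came from its own animal.

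Values are RMA signals, read as log2. The labels name a neck muscle as the tissue, yet 0 of 8 skeletal muscle genes lay above background, while 6 of 6 measured sympathetic neuron genes did, among them Th at 11.88 ± 0.18 and Dbh at 10.64 ± 0.33 (SD, n = 4). Background was read from 1394 receptor genes of smell and pheromone sensing (olfactory and vomeronasal), presumed silent in a tumour: the floor is the 95th percentile of their 4-tumour means, 6.17, and their median was 4.01. A gene under the floor is undetermined, not shown to be absent. In bulk tumour RNA, fewer cells of a type and less RNA per cell cannot be told apart. Arrays differed at the low end: the receptor genes' median was 3.85, 3.95, 4.10 and 4.10 in tumours 1 to 4, and their 95th percentile within each tumour was 5.91, 6.14, 6.37 and 6.43.

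Of the 10 members, 1 had a mean above the floor, Cd209a, and 9 lay below it. Of all named genes, 40.5% lay above. The 1 member that passed did so through the brighter of its probe sets. Through the other probe set, 0 of 10 members passed. Against the receptor genes' means, Cd209a lay at the 99.9th percentile through the brighter probe set and at the 84.5th through the other. The 9 members below the floor lay at 3 levels. Pparg, Mrc1 and Arg1 lay at the 94.8th, 91.9th and 87.1st percentiles of the receptor genes' means. Ccl24 and Chil3 lay at the 72.0th and 68.7th. Mgl2, Clec10a, Retnla and Ccl17 lay between the 39.0th and 51.1st percentiles, in the middle of genes that should be silent.

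**Figure D1:**
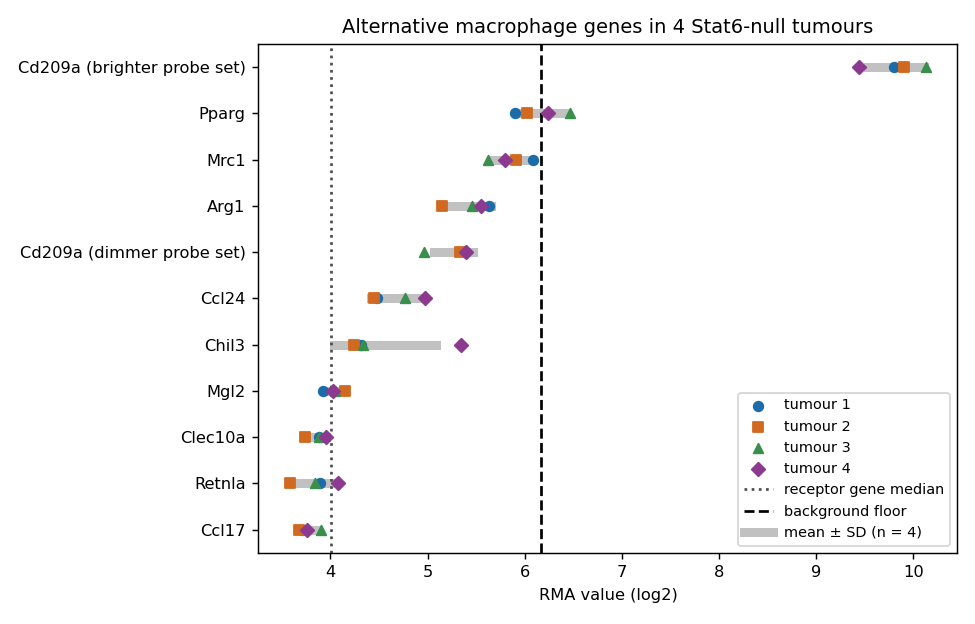
RMA value (log2) of each of the 11 probe sets in each tumour (points), with the mean ± SD over 4 tumours (grey bars), the receptor gene median (dotted line, 4.01) and the background floor (dashed line, 6.17). The brighter Cd209a probe set stands at 9.45 to 10.13, and every other probe set has its mean under the floor.

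Arginase and the secreted effectors were below the floor. Arg1, arginase 1, which turns arginine into ornithine and urea, measured 5.63, 5.15, 5.46 and 5.55 in tumours 1 to 4, with a mean of 5.45 ± 0.21 (SD, n = 4). No tumour reached its own floor, and tumour 2 was the lowest. Arg2, the mitochondrial arginase, measured 5.26 ± 0.20 (SD, n = 4) and was also below the floor. The hepatocyte list, cells that make Arg1 for the urea cycle, had 0 of 4 members above the floor.

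Retnla, a resistin-like secreted protein also called FIZZ1, measured 3.90, 3.59, 3.84 and 4.08, with a mean of 3.85 ± 0.20 (SD, n = 4). In each tumour it lay within 0.37 of the receptor median. Its relatives Retn, Retnlb and Retnlg had means of 5.54, 4.14 and 3.75, and 0 of 3 lay above the floor.

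Chil3, the chitinase-like protein Ym1, measured 4.31, 4.25, 4.34 and 5.34, with a mean of 4.56 ± 0.52 (SD, n = 4). Tumours 1 to 3 lay together and tumour 4 above them, still below its own floor. Chil3 was the 1 member of 10 whose range over the tumours reached 1 log2 unit (2-fold), which 2.74% of all named genes did. With array medians set equal its range was 0.99, and without tumour 4 it was 0.091, so that 0 of 10 members then reached 1. Dixon's ratio, which divides the gap between the outermost value and the next by the whole range, was 0.92 for Chil3. It passed its 95% critical value in 4.55% of named genes, and 0.140% passed it with a range of at least 1 as well.

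Chil4, a close paralogue whose probes can share signal with Chil3, measured 4.18, 4.12, 4.48 and 4.66 and was also highest in tumour 4, without the gap. Of the 6 chitinase-like relatives measured, 0 lay above the floor, and Chia1, a chitinase, was likewise highest in tumour 4, at 5.42 against 4.40 to 4.77 elsewhere. Chil5, Chil6 and Chit1 were also highest in tumour 4. Chil1 ran the other way, highest in tumour 3, at 5.20, and lowest in tumour 4, at 4.58. Neutrophils make Chil3 too. The neutrophil list had 0 of 10 genes above the floor, and its median deviation from the genes' own means was -0.15, -0.04, -0.0041 and 0.17 in tumours 1 to 4. The median over all genes below the floor ran the same way, at -0.07, -0.03, 0.01 and 0.08. Of the 10 neutrophil genes, 9 were highest in tumour 4, and S100a9, at 5.86, was highest in tumour 3. Of all genes below the floor, 44.2% were highest in tumour 4. The part of neutrophil genes and of low-level signal in the Chil3 value was not tested. Tumour 4 also differed in the Y-linked gene Eif2s3y, at 3.90 against 7.47 to 7.89 in the others.

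**Figure D2:**
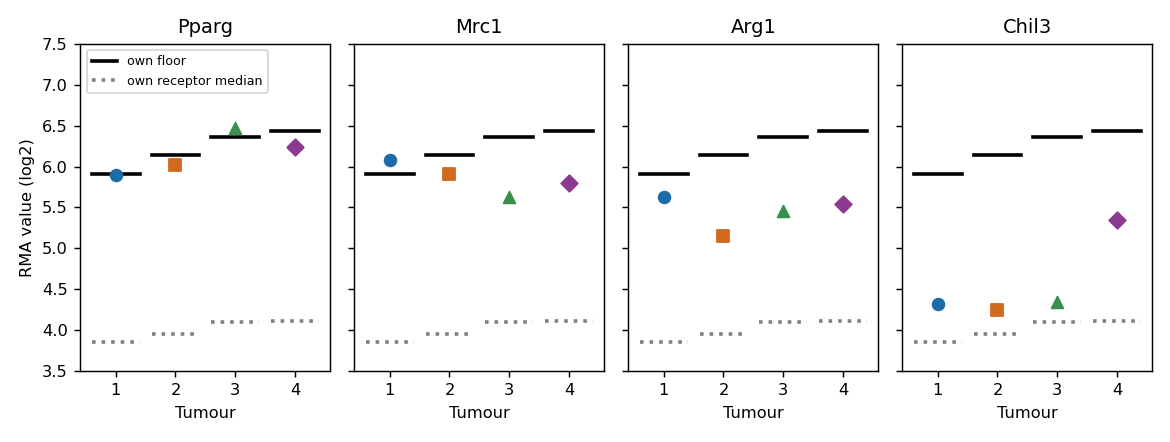
RMA value (log2) of Pparg, Mrc1, Arg1 and Chil3 in each tumour (points), with the 95th percentile (solid bars) and the median (dotted bars) of receptor genes in the same tumour. Pparg passes its tumour's floor in tumour 3, Mrc1 in tumour 1, Arg1 and Chil3 in none, and Chil3 is 5.34 in tumour 4 against 4.25 to 4.34 in the rest.

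The chemokines were below the floor as well. Ccl17, a ligand of Ccr4 that draws T helper 2 cells, measured 3.71, 3.68, 3.90 and 3.76 and was below the receptor median in every tumour. Its mean of 3.76 ± 0.10 (SD, n = 4) was the lowest of the members. Ccl22, the other ligand of that receptor, had a mean of 4.64 and Ccr4 of 3.73.

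Ccl24, eotaxin-2, which attracts eosinophils through Ccr3, measured 4.48, 4.45, 4.77 and 4.98, with a mean of 4.67 ± 0.25 (SD, n = 4). Tumours 3 and 4 were above tumours 1 and 2, as was the receptor median. Above that median it stood by 0.63, 0.50, 0.67 and 0.87. Ccl11, eotaxin-1, which fibroblasts also make, was above the floor at 6.39 ± 0.18 (SD, n = 4) and, unlike Ccl24, was highest in tumour 1, at 6.64. Ccr3 had a mean of 4.04, and eosinophil and mast cell markers had 0 of 8 above the floor.

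STAT6 binds palindromes of TTC and GAA, preferably with 4 bases between them, and STAT proteins as a class also bind the form with 3. Both forms, TTCNNNNGAA and TTCNNNGAA, were searched in the RefSeq promoter windows of GRCm38.p6, which run from 250 bases before to 50 after a gene's start. Each form reads the same on both strands, and the matches found in the members do not overlap. Windows were at hand for 7 of the 10 members, not for Arg1, Clec10a and Ccl24. Retnla, Ccl17 and Chil3 held a match, 3 of 7 genes and 3 of 9 windows, where 14.6% of all 32851 windows held either form. The 3 genes lay below the floor in every tumour, as did Mgl2, whose window held no match. The 3 windows are printed because they hold a match, with matches in capitals, 5′ to 3′ on the gene's strand.
Retnla (chr16:48842359-48842658, plus strand): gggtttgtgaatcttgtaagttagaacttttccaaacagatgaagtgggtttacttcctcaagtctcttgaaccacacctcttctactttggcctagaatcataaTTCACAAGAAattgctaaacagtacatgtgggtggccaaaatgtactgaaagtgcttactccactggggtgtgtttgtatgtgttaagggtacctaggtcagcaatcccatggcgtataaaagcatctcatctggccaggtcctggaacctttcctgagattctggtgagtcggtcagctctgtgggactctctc
Ccl17 (chr8:94810203-94810502, plus strand): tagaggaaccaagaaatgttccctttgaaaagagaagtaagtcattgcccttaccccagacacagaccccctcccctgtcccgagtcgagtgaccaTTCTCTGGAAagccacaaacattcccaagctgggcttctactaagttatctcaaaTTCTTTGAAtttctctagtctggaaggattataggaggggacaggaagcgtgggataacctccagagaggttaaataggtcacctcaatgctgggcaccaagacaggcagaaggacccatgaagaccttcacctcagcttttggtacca
Chil3 (chr3:106167515-106167814, minus strand): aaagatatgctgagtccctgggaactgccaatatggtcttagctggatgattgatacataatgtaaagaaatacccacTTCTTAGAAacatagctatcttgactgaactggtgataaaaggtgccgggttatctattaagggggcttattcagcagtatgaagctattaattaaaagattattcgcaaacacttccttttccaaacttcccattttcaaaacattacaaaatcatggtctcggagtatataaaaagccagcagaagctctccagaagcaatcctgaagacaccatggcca
The form with 4 bases occurred in Retnla, 145 bases before the start, and in Ccl17, 154 bases before it, and 6.95% of all windows hold it. The form with 3 bases occurred in Ccl17, 99 bases before the start, and in Chil3, 172 bases before it, and 8.30% of all windows hold it. A match of letters is not a bound site, and binding was not measured.

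Among the lectin receptors, Mrc1 came nearest to detection after Cd209a. Mrc1, the mannose receptor CD206, which takes up mannosylated glycoproteins, measured 6.09, 5.91, 5.62 and 5.79, with a mean of 5.85 ± 0.19 (SD, n = 4). It passed its own floor in tumour 1 and was lowest in tumour 3. Sinusoidal and lymphatic endothelium also express Mrc1. Of that list Stab1, a scavenger receptor shared by such vessels and by macrophages, measured 6.66, 6.34, 6.22 and 6.38. Its highest and lowest values were in the same tumours as those of Mrc1. Outside the list, C1qa, Csf1r, Il4ra, Jak1, Jak2 and Tgm2 had theirs in these tumours too. Of all genes above the floor, 36.1% were lowest in tumour 3. Pdpn, podoplanin, was also above the floor and had its lowest value, 7.10, in tumour 2 and its highest, 8.24, in tumour 4. Lyve1, below the floor and named after its values were seen, was highest in tumour 1, at 6.43, and lowest in tumour 2, at 5.85. Of the 5 measured genes of the list 2 lay above the floor, and their part in the Mrc1 signal was not tested. The other relatives of Mrc1, namely Mrc2, Pla2r1 and Ly75, had means of 5.43, 4.62 and 4.97.

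Mgl2 and Clec10a are neighbouring genes for the galactose-type lectins CD301b and CD301a of macrophages and dendritic cells. Mgl2 measured 3.93, 4.15, 4.05 and 4.03, a mean of 4.04 ± 0.09 (SD, n = 4). Clec10a measured 3.88, 3.74, 3.88 and 3.96, a mean of 3.86 ± 0.09 (SD, n = 4). Each spanned 0.22 over the tumours, and the tumour that was highest for Mgl2, tumour 2, was the lowest for Clec10a. The related liver lectins Asgr1 and Asgr2 had means of 4.52 and 4.41.

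Macrophage transcripts were present in the same arrays. Of 20 measured macrophage genes, 12 lay above the floor, against the 40.5% of all named genes. The 8 below it were Adgre1, Mertk, Fcgr1, Itgam, Cd14, Cd163, Aif1 and Siglec1, named after their values were seen. Their means ran from 4.07 to 6.12. Like the other lists, the macrophage list was chosen with earlier results of these data known. Lyz2, lysozyme, measured 10.04, 10.49, 9.41 and 10.16, Trem2, a lipid-sensing receptor, 7.12, 7.07, 6.29 and 7.24, and Csf1r, the receptor of the macrophage growth factor, 6.90, 6.19, 5.64 and 6.13. C1qa measured 7.46 ± 0.24 and Laptm5, a lysosomal membrane protein, 6.55 ± 0.25 (SD, n = 4). Of the 12, 11 were lowest in tumour 3, as were 36.1% of all genes above the floor. The median deviation of the 12 was 0.14, 0.18, -0.48 and 0.11 in tumours 1 to 4. All genes above the floor had medians of 0.12, 0.04, -0.09 and -0.08. Mrc1, at 0.23, 0.06, -0.23 and -0.06, shared the low value in tumour 3. Arg1, at 0.19, -0.30, 0.01 and 0.10, did not.

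Cd209a, a mouse relative of the human dendritic cell lectin DC-SIGN, was read in 2 ways that disagreed. Its brighter probe set measured 9.80, 9.91, 10.13 and 9.45 in tumours 1 to 4, with a mean of 9.82 ± 0.28 (SD, n = 4). Its dimmer probe set measured 5.38, 5.34, 4.97 and 5.39, with a mean of 5.27 ± 0.20 (SD, n = 4), and passed no tumour's floor. The order of the tumours was also different. The brighter set was highest in tumour 3 and lowest in tumour 4, and the dimmer set had its minimum in tumour 3 and its maximum in tumour 4. Deviations from the mean were -0.02, 0.09, 0.31 and -0.38 for the brighter set and 0.11, 0.07, -0.30 and 0.12 for the dimmer one.

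The dimmer set shared its low tumour with the macrophage genes above the floor, whose median deviation was also negative in tumour 3 alone. The dimmer set itself lay below the floor, where 19.5% of all genes were lowest in tumour 3. The brighter set did not share that low tumour. Of the 12 macrophage genes above the floor, C1qa lay nearest to it, with a largest difference between their deviations of 0.66 over the 4 tumours. That placed C1qa 8061st among the 8954 genes compared. The 12 ranged from 0.66 to 0.95, where the median of all genes compared was 0.45.

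The gene nearest to the brighter Cd209a set was Rprl2, at a largest difference of 0.03 over 4 tumours. Rprl2 is listed by RefSeq as an RNase P RNA, the RNA part of the enzyme that trims the 5′ ends of transfer RNA precursors. It measured 10.03, 10.08, 10.36 and 9.64, highest in tumour 3 and lowest in tumour 4 like the Cd209a set. Rprl2 was picked by this likeness, so the shared tumours are no separate result. Ksr1, a scaffold of the RAS pathway, Snord65, a small nucleolar RNA, 2900026A02Rik and Ndrg1, a differentiation- and stress-responsive gene, came next, at 0.06, 0.06, 0.06 and 0.08. In all, 8 of the 8954 genes (0.0893%) lay within 0.1. With 4 tumours there are few points, and unrelated genes can lie close.

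Named after its values were seen, Rpph1, the main RNase P RNA gene, measured 12.61, 12.53, 12.73 and 12.22 and lay 16th, at 0.11. Rprl1, of the same class, measured 6.52, 6.75, 6.44 and 6.52 and lay 3666th, at 0.42, so the class did not run as a whole. In the order of genes along GRCm38.p6, the gene next to Cd209a on the side of Cd209e is Rprl3, another RNase P RNA. The platform annotation as given names no probe set for Rprl3. Neither the position nor the probes of the brighter set are known here, and which transcript it reads was not tested.

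**Figure D3:**
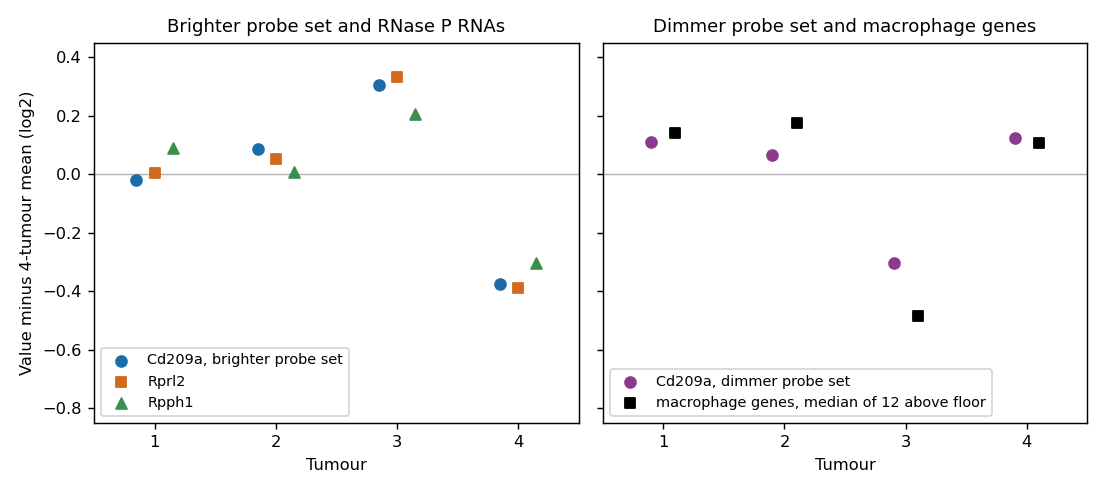
Value minus the 4-tumour mean (log2) in each tumour. Left, the brighter Cd209a probe set with Rprl2 and Rpph1, all highest in tumour 3 and lowest in tumour 4. Rprl2 was chosen as the gene nearest to that probe set, and Rpph1 after its values were seen. Rprl1, of the same class, is not plotted and was highest in tumour 2 and lowest in tumour 3. Right, the dimmer Cd209a probe set, -0.30 in tumour 3, with the median of 12 macrophage genes, -0.48 in tumour 3.

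Of the Cd209 family, Cd209c also had probe sets that disagreed, 1 at 6.67 ± 0.21 and 1 at 4.48 ± 0.08 (SD, n = 4). The brighter was highest in tumour 4, at 6.93, and lowest in tumour 3, at 6.46, unlike the brighter Cd209a set. Cd209b, Cd209d, Cd209e and Cd209g had means between 3.66 and 4.11, below the floor. Dendritic cells, which express Cd209a in mouse, had 0 of 9 markers above the floor, with means from 4.14 to 5.94.

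Pparg, a nuclear receptor that IL-4 induces in macrophages and that also directs fat cell formation, lay at the floor. It measured 5.90, 6.02, 6.47 and 6.24, with a mean of 6.16 ± 0.25 (SD, n = 4), under the floor by 0.0080. It passed its own floor in tumour 3 alone. When both the mean and the floor were taken over 3 tumours, Pparg lay just above the floor without tumour 2 (6.204 over 6.200) and without tumour 4 (6.13 over 6.11), and 2 of 10 members then passed. It stayed below without tumour 1 (6.24 under 6.31) and without tumour 3 (6.05 under 6.13). Ppard, its widely expressed relative, measured 6.87, 6.83, 7.06 and 6.84 and was likewise highest in tumour 3, whereas Ppara had a mean of 4.35.

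Adipocyte genes, several of which PPARG activates in fat cells, had 1 of 7 above the floor, Lpl, lipoprotein lipase, at 6.78 ± 0.15 (SD, n = 4). The adipocyte-defining Adipoq and Plin1 had means of 4.12 and 5.27. Fabp4, a fatty acid carrier that PPARG activates, named after its values were seen, measured 6.57, 4.14, 5.84 and 6.19. It was highest in tumour 1, where Pparg was lowest. In the same list Lpl was also highest in tumour 1, Adipoq in tumour 3 like Pparg, and Plin1 in tumour 4. The list thus did not run 1 way against Pparg.

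Other genes that IL-4 induces through STAT6 in mouse macrophages were mostly below the floor too. Of 19 measured, 1 lay above the floor, Tgm2, transglutaminase 2, which many other cells express. Tgm2 measured 7.31, 7.22, 6.82 and 7.20, lowest in tumour 3. In the list of the IL-4 and IL-13 pathway, which holds Stat6 itself, 4 of 12 lay above the floor, against 40.5% of all named genes. These were Il4ra at 6.56 ± 0.16, the kinases Jak1 at 8.03 ± 0.23 and Jak2 at 6.87 ± 0.21, and the adaptor Irs2 at 7.45 ± 0.24 (SD, n = 4). Named after their values were seen, the cytokines Il4 and Il13 had means of 3.67 and 5.85. Stat6 itself measured 5.83, 5.92, 5.75 and 5.80 and was below the floor, though nothing says whether its probes lie in the deleted part, so this does not check the genotype. Genes of classical activation, the interferon- and endotoxin-driven state, had 1 of 12 above the floor. That gene was Saa3, serum amyloid A3, at 7.42, 6.47, 6.76 and 7.19.

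**Figure D4:**
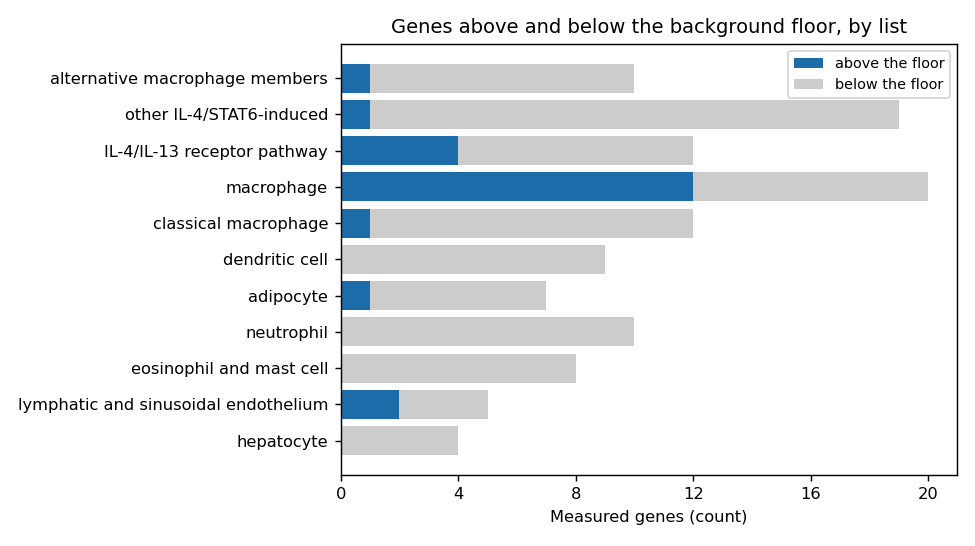
Number of measured genes above (blue) and below (grey) the background floor in the 10 members and in 10 other lists. The members have 1 above and 9 below, and the macrophage list 12 above and 8 below.

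Across the arrays, the 9 members below the floor can be set beside all genes at that level. The members' median deviation was -0.05, -0.14, 0.01 and 0.09 in tumours 1 to 4. All genes below the floor had medians of -0.07, -0.03, 0.01 and 0.08. Of the 9, 4 were highest in tumour 4 and 2 in tumour 3, and 68.8% of all genes below the floor were highest in one of these. Arg1, Mrc1 and Mgl2 were the exceptions, with Arg1 and Mrc1 highest in tumour 1 and Mgl2 in tumour 2. Of the 9, 6 were lowest in tumour 2, as were 24.9% of all genes below the floor.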

How the data were processed

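RNA of 4 tumours, extracted with Trizol per the labels' protocols, was measured on 1-colour Affymetrix arrays. The deposited table holds 41345 probe sets with 1 value per tumour. The submitters' processing notes name RMA and Partek, without versions, and the log base is not stated, so the deposited values (2.47 to 13.6) are read as log2. They were used as given. At most 0.215% of values were identical between any 2 arrays, and each tumour counts as 1 sample. Depth does not apply; the number of arrays limits the precision.

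Of 25335 annotated probe sets, 23521 name 1 gene and were kept, 1814 name several, and 16010 are not listed. Symbols were updated by Entrez number with RefSeq GRCm38.p6 (23328 matched), and the probe set with the highest mean was taken per gene. Ear11 was read under its current symbol, Rnase2a. With 1 group no test was made. Alternatives changed the floor, the scaling, the probe sets used and the tumours included. Likeness to a member is the largest absolute difference between both genes' deviations over the 4 tumours. Members and lists were chosen with earlier results of these data known. Named were all members and their paralogues, Stat6, up to 3 genes above the floor per list with the widest and 2 with the narrowest range, and the 5 genes nearest to a member above the floor. The muscle and sympathetic lists were added later, and Ccr3, Ccr4, Adipoq, Plin1, S100a9, Th, Dbh and Eif2s3y were named after their values were seen. Python 3.11.15 and pandas 2.3.3 were used, and the steps were tested on simulated data.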

Additional observations from a re-analysis of the deposited data

Results flagged for a closer look

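Dixon's ratio passed its 95% critical value for 4 samples in 5 of 69 chosen probe sets and genes. The 69 include some named after their values were seen, Eif2s3y among them. Chance flags about 1 in 20 groups, and of all named genes 4.55% passed. Some listed genes outside the 69 also passed. For Chil3 the ratio was 0.917, from tumour 4 at 5.34 against 4.25 to 4.34. For the dimmer Cd209a probe set it was 0.868, from tumour 3 at 4.97 against 5.34 to 5.39. Cd209e reached 0.859, from tumour 1 at 3.53 against 3.71 to 3.74, at background. Ppard reached 0.856, from tumour 3 at 7.06 against 6.83 to 6.87. Eif2s3y, on the Y chromosome, reached 0.896, from tumour 4 at 3.90 against 7.47 to 7.89.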

How the results depend on the processing

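With no contrast between conditions, the alternatives bear on levels, counts and deviations. The number of members above the floor, 1, was 3 with the floor moved to the receptor genes' 90th percentile, 7 with it at their median, and 0 with the other Cd209a probe set, an alternative chosen after seeing the data. Leaving out 1 tumour gave 1 or 2, with the floor taken over the same tumours, and it was 2 without tumour 2 and without tumour 4. The number with a range of at least 1 was 1, and 0 with array medians set equal. It was 0 or 1 with 1 tumour left out, and 0 without tumour 4. The Cd209a mean was 7.54 over both probe sets and 5.27 in the dimmer one alone. In the dimmer set the deviation was -0.30 in tumour 3 and 0.12 in tumour 4, against 0.31 and -0.38 in the brighter one. The cause was not tested. The other 131 of 142 alternative values, among them the 40 member means with 1 tumour left out and the 20 after a further normalization, moved by less than the SD over tumours or, for counts, by less than 1.5 times. Some small deviations among these 131 values changed sign. Without tumour 3, the macrophage list's deviation was -0.02 in tumour 1 and -0.06 in tumour 4, against 0.14 and 0.11. With array medians set equal, that of the brighter Cd209a set in tumour 1 was 0.05, against -0.02. Without tumour 4, that set's deviation in tumour 2 was -0.04, against 0.09. No paired analysis was possible because there is 1 group.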
